A study of Mus musculus with 30 samples.

Results

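AP-1 transcription factors were examined in haematopoietic stem cells (HSCs), the bone marrow cells that renew blood. The set was chosen by name and holds 9 of the 35727 genes in the deposited expression table: Fos, Fosb and Fosl2 of the Fos family, Jun, Junb and Jund of the Jun family, and Atf3, Maff and Batf. All 9 had a normalized count of at least 10 in each of the 30 libraries, so none was lost to the filter on low values. Mice labelled IL1R1 KO gave 3 libraries at 2 months, 4 at 1 year and 5 at 2 years. Bowel germ-free mice gave 3 libraries at 2 months and 2 at 1 year. Wild-type (WT) mice gave 4 libraries at 2 months, 5 at 1 year and 4 at 2 years. The labels state no strain, sex, knockout allele or surface markers for the sort. By the series title, the comparisons concern interleukin-1 and the microbiome in the ageing of HSCs.

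AP-1 is a pair of proteins held together by a leucine zipper, the bZIP domain, and it binds DNA as a dimer. Fos proteins pair only with a partner such as a Jun protein, whereas Jun proteins also pair with themselves. Atf3, Maff and Batf are smaller bZIP proteins that join Jun or related factors and, lacking a strong activation domain, often lower transcription. Most of these genes are immediate early genes, which are transcribed within minutes of growth factor, cytokine or stress signals without new protein synthesis, and whose RNA is short-lived. Interleukin-1 is among the signals that reach AP-1, through the MAP kinases, and handling of fresh tissue is another known inducer.

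Each library was made by Smart-seq2 from 4000 to 5000 sorted cells. Depth was roughly estimated at 15.6 to 56.3 M reads, from summed normalized counts and the most frequent low value taken as 1 read. Only 10.9% to 18.4% of low values in a library were whole multiples of that value. HSC markers were present throughout: Kit, the stem cell factor receptor, ran from 17449 to 28971 normalized counts, and Procr from 3210 to 7216. Il1r1 itself was not lower in the libraries labelled IL1R1 KO, at 186 to 409 normalized counts, than in WT libraries, at 137 to 383. The log2 difference was 0.40 ± 0.30 (SE) at 2 months, 0.28 ± 0.26 at 1 year and 0.25 ± 0.26 at 2 years, with limma adjusted p of 0.71, 0.75 and 0.80. Every direction given for these libraries, shortened below to KO-labelled, therefore rests on the label. For KO-labelled 1-year replicate 1 the title and source say 1 year and the age label says 2 months. It was kept at 1 year, and results that depend on this are given with both placements. Mpo, a granule enzyme of myeloid cells, was above 10000 in 6 of the 2-month libraries, which were KO-labelled replicates 1 and 3, germ-free replicates 1 and 3 and WT replicates 2 and 4. In sorted bulk cells, fewer cells of a type and less RNA per cell cannot be told apart.

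The 250 bases upstream of the transcription start are shown for 5 genes on which the results turn: Fos and Jun, the most abundant members, Atf3, the most variable, Fosl2, which differed between groups, and Batf, which stayed level. Sequences are from RefSeq on GRCm38.p6, read 5′ to 3′ along each gene's strand and ending next to the start site. Capitals mark matches to motifs searched on both strands: the TATA box (TATAAA), the CREB and ATF element CRE (TGACGTCA), its looser form (TGACNTCA), the CRE half-site (TGACG) and the AP-1 site (TGANTCA). The CArG box of serum response factor was also searched.
Fos (chr12:85473640-85473889, plus strand): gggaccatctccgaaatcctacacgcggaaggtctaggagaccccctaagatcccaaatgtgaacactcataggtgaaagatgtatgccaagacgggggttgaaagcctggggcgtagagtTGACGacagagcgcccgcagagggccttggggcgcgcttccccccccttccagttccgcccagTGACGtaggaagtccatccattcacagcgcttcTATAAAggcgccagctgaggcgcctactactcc
Jun (chr4:95052223-95052472, minus strand): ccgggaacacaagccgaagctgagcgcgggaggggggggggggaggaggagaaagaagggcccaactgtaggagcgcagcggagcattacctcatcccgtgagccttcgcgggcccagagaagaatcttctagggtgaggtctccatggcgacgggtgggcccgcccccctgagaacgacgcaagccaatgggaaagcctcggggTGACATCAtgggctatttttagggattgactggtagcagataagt
Fosl2 (chr5:32136222-32136471, plus strand): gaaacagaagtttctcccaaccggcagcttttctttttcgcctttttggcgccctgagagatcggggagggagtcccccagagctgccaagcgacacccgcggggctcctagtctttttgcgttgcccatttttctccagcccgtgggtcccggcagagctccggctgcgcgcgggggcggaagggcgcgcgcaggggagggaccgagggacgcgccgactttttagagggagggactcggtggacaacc
Atf3 (chr1:191183334-191183583, minus strand): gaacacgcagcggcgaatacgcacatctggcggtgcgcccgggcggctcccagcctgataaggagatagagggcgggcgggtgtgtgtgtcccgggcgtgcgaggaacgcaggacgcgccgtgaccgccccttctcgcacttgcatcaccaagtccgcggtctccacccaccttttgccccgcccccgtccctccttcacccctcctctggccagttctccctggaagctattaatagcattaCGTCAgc
Batf (chr12:85686470-85686719, plus strand): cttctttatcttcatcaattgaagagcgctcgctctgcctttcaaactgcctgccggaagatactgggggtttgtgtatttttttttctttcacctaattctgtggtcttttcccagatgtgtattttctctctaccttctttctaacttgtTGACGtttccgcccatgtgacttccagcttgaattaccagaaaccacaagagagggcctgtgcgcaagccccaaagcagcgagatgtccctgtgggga

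Fos carried a TATA box 33 to 28 bases before its start and CRE half-sites at 129 to 125 and 66 to 62. Jun carried the looser CRE, TGACATCA, 45 to 38 bases before its start. Maff, which has several listed starts, held the full CRE TGACGTCA 29 to 22 bases before one of them and TGACATCA 45 to 38 before another. Fosb, Junb, Atf3 and Batf held only half-sites, Atf3 in the reverse orientation 7 to 3 bases from the start, and Fosl2 and Jund held no match. These are RefSeq starts, which can lie away from the gene starts given below. For Jund it was 70697739, upstream of the gene start at 70698949. For Fosl2 it was 32136472 and for Atf3 191183333, inside genes that begin at 32135801 and, on the minus strand, 191218039. Sequence just before these 3 gene starts was not searched. No window of the 9 members matched the AP-1 site or the CArG box, and for no member was sequence farther than 250 bases upstream of these starts searched for either. Among 32851 RefSeq promoters of this length, 12.4% held the TATA box, 1.55% the CRE, 7.49% the looser CRE, which includes the CRE, 17.8% the half-site, which the CRE also contains, 6.75% the AP-1 site and 1.47% the CArG box. Base composition also differed, with 58.4% G and C in the Fos window, 61.2% in Jun, 64.4% in Fosl2, 65.2% in Atf3 and 46.4% in Batf. These matches are letters in a short window and say nothing about occupancy in these cells.

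Fos and Jun were among the more abundant RNAs of these libraries. Together they took 0.207% to 1.59% of a library's summed normalized counts, with a median of 0.859%, and all 9 members took 0.256% to 1.85%. Per kb of exon, the median level over the 30 libraries was 44238 for Fos, 36160 for Jun and 12264 for Junb. It was 1363 for Batf, 1299 for Fosb, 514 for Atf3, 381 for Jund, 207 for Fosl2 and 63.1 for Maff. Fos made up 93.8% to 97.9% of the per-kb sum of Fos, Fosb and Fosl2 in every library. Jun made up 60.9% to 89.2% of the per-kb sum of Jun, Junb and Jund, and Junb most of the remainder.

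Fos, the founding member of its family, which needs a partner such as a Jun protein, lies at chromosome 12, 85473890 to 85477273 on the plus strand (GRCm38, ENSMUSG00000021250). KO-labelled libraries had 30874, 31365 and 105230 normalized counts at 2 months, 181829, 211823, 166091 and 102868 at 1 year, and 158114, 189922, 182931, 138574 and 175044 at 2 years. Germ-free libraries had 56588, 179439 and 51465 at 2 months and 57737 and 61403 at 1 year. WT libraries had 94671, 45545, 131824 and 43379 at 2 months, 18674, 122962, 127495, 119381 and 9057 at 1 year, and 84892, 6004, 111793 and 52309 at 2 years. The KO-labelled 2-year libraries were all high and close together, whereas in WT at 1 year replicates 1 and 5 fell far below the other 3, and WT 2-year replicate 2 was the lowest of all. Of the 10 libraries with the highest Fos, 8 were among the 9 KO-labelled libraries of 1 and 2 years, 1 was germ-free and 1 was WT. The 10 lowest held 6 WT, 2 germ-free and 2 KO-labelled 2-month libraries.

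Fosb, a close relative whose short splice form acts as an inhibitor, spanned 496 to 22780 normalized counts, a 45.9-fold range against 35.3-fold for Fos. Its lowest libraries were WT 1-year replicate 5 at 496 and WT 2-year replicate 2 at 506, which were also the 2 lowest for Jund. KO-labelled groups averaged 7469 ± 5191 at 2 months, 14712 ± 5638 at 1 year and 11548 ± 2527 at 2 years (SD, n = 3, 4 and 5). Germ-free libraries ran from 6518 to 17552 at 2 months and 3259 to 4235 at 1 year, and WT libraries from 4476 to 14157, 496 to 8146 and 506 to 14866 at the 3 ages. All KO-labelled 1-year libraries were above all WT 1-year libraries, while at 2 years WT replicate 3 exceeded every KO-labelled library. Fosb lies at chromosome 7, 19302696 to 19310051 on the minus strand.

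Fosl2, which encodes Fra-2, a Fos protein induced later and held longer than Fos in many cells, varied less, over a 5.06-fold range. It lies at chromosome 5, 32135801 to 32157842. KO-labelled libraries had 1014, 1247 and 1577 normalized counts at 2 months, 3355, 1767, 3745 and 1230 at 1 year, and 4328, 3358, 3412, 3832 and 3501 at 2 years. Germ-free libraries had 1252, 3530 and 1262 at 2 months and 3270 and 2988 at 1 year. WT libraries had 2205, 2134, 2019 and 1989 at 2 months, 1681, 1892, 1766, 2047 and 1029 at 1 year, and 2297, 855, 1613 and 1997 at 2 years. Every KO-labelled 2-year library stood above every WT library, every KO-labelled 2-month library and both germ-free 1-year libraries, while the KO-labelled 1-year libraries fell apart into 2 high and 2 low ones. When the 8 groups are put in order of their medians, KO-labelled 2 years over germ-free 1 year in Fosl2 was the only pair of neighbours, for any of the 9 genes, whose ranges did not overlap. The margin was small, 3358 against 3270, and rests on 2 germ-free libraries. Germ-free 2-month replicate 2, at 3530, lay within the KO-labelled 2-year range. How often neighbours separate over all genes was not computed.

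**Figure D1:**
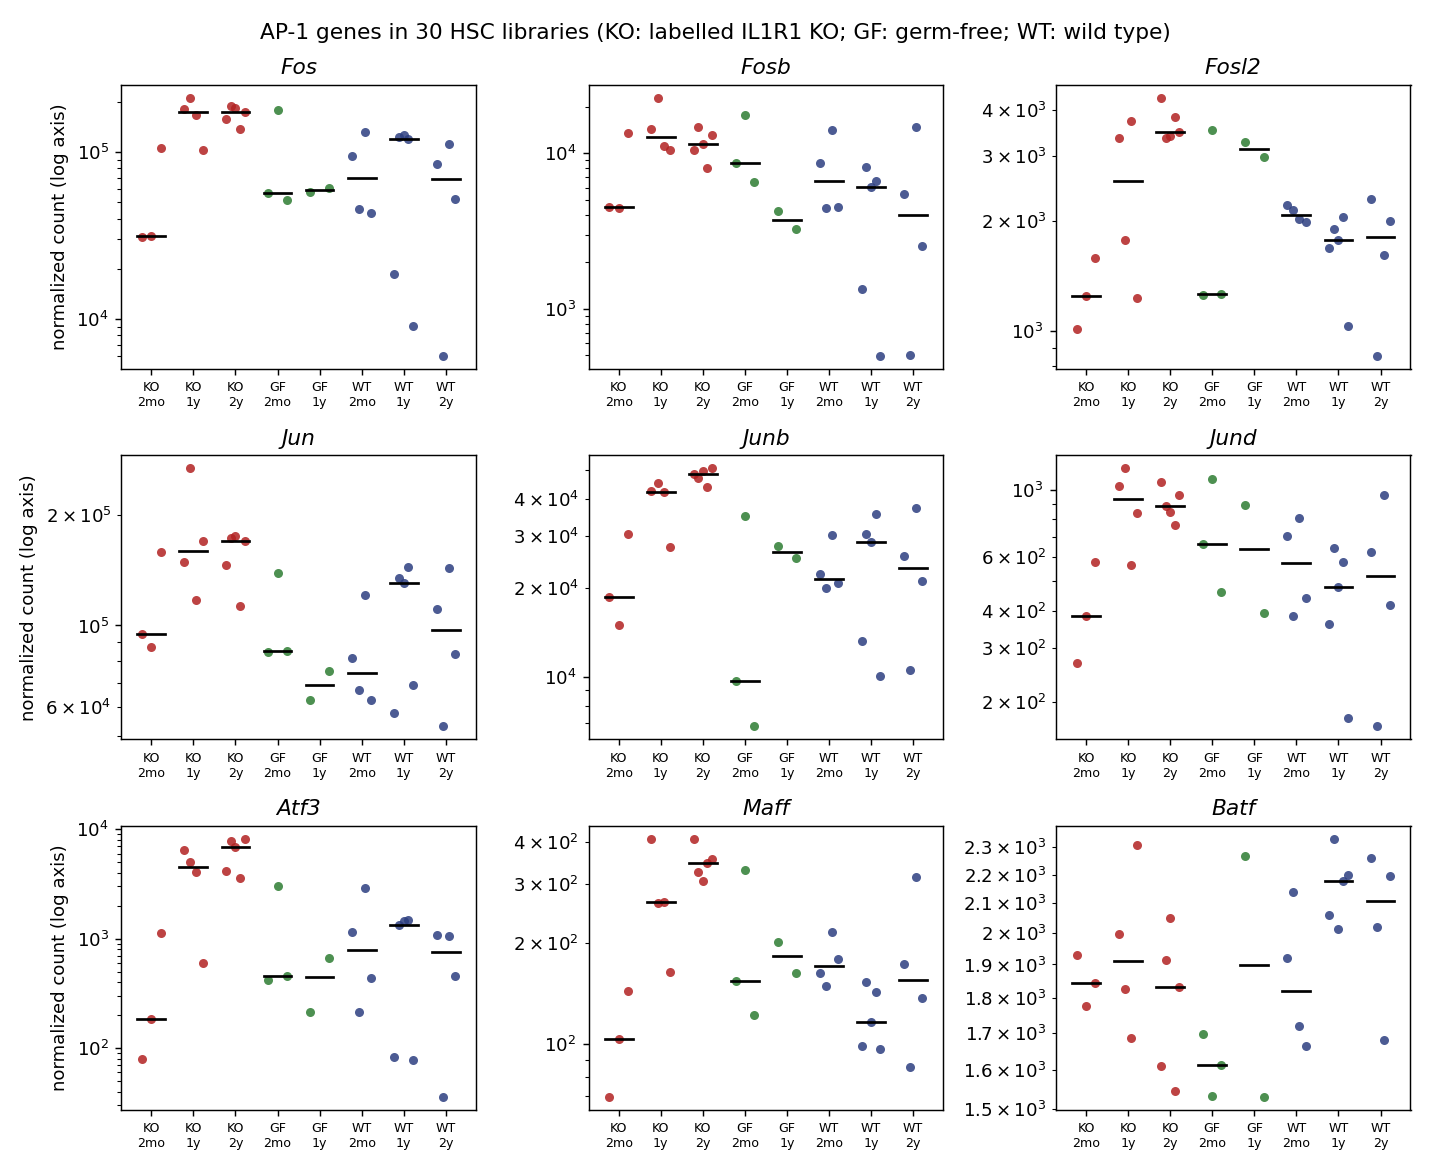
Normalized counts (log axes, one panel per gene) of the 9 AP-1 genes in each library of the 8 groups; points are libraries and bars are group medians. The 5 KO-labelled 2-year libraries lie close together at 3358 to 4328 for Fosl2 and 138574 to 189922 for Fos, and Batf stays between 1531 and 2332 in all libraries.

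Jun, the most potent activator of its family, lies at chromosome 4, 95049034 to 95052222, and spanned 53226 to 267041 normalized counts, a 5.02-fold range. It ran from 87454 to 158176 at 2 months, 117348 to 267041 at 1 year and 113283 to 174733 at 2 years in KO-labelled libraries, 84727 to 138644 and 62634 to 75165 at 2 months and 1 year in germ-free libraries, and 62881 to 120905, 57969 to 144252 and 53226 to 142939 at the 3 ages in WT libraries. Junb, which can restrain Jun and in mouse limits HSC and myeloid expansion, was close to uniform in KO-labelled libraries at 2 years. Its KO-labelled libraries had 18690, 15044 and 30550 normalized counts at 2 months, 42677, 45338, 42181 and 27534 at 1 year, and 48658, 47148, 49866, 43844 and 50836 at 2 years. Germ-free libraries had 9713, 35115 and 6802 at 2 months and 27765 and 25256 at 1 year, and WT libraries had 22327, 20072, 30326 and 20725 at 2 months, 13280, 30422, 28675, 35552 and 10104 at 1 year, and 25675, 10533, 37380 and 21110 at 2 years. All 5 KO-labelled 2-year libraries were above all 13 WT and all 5 germ-free libraries. Junb lies at chromosome 8, 84974484 to 84978718 on the minus strand and overlaps Prdx2 on the plus strand. Since Smart-seq2 does not mark strand, reads of their shared bases cannot be told apart. Jund, usually the steady member of the family, ranged here over 7.10-fold. It ran from 269 to 578 normalized counts at 2 months, 563 to 1178 at 1 year and 764 to 1058 at 2 years in KO-labelled libraries, 460 to 1089 and 392 to 888 at 2 months and 1 year in germ-free libraries, and 382 to 807, 177 to 644 and 166 to 959 at the 3 ages in WT libraries. All KO-labelled 2-year libraries were above all KO-labelled 2-month libraries in Jund, and in both Jun and Jund they overlapped the WT 2-year range. Jund is at chromosome 8, 70698949 to 70700616.

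Atf3, a stress-induced factor that mostly represses, at chromosome 1, 191170296 to 191218039, had the widest range of the set, 228-fold. KO-labelled libraries had 79.1, 186 and 1124 normalized counts at 2 months, 6509, 5039, 4051 and 601 at 1 year, and 4174, 7890, 6920, 3623 and 8176 at 2 years. Germ-free libraries had 416, 3059 and 453 at 2 months and 216 and 672 at 1 year. WT libraries had 1146, 215, 2889 and 439 at 2 months, 83.8, 1337, 1459, 1469 and 77.2 at 1 year, and 1090, 35.9, 1057 and 458 at 2 years. Libraries high or low in Fos were high or low in Atf3 as well, and all 5 KO-labelled 2-year libraries exceeded every WT and germ-free library.

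Maff, a small Maf protein without an activation domain, at chromosome 15, 79346621 to 79359076, was the least abundant member. KO-labelled libraries had 69.8, 104 and 144 normalized counts at 2 months, 409, 264, 266 and 164 at 1 year, and 409, 326, 305, 346 and 356 at 2 years. Germ-free libraries had 154, 331 and 122 at 2 months and 202 and 163 at 1 year. WT libraries had 163, 149, 215 and 179 at 2 months, 99.1, 154, 117, 144 and 97.1 at 1 year, and 174, 85.5, 315 and 138 at 2 years. KO-labelled 1-year libraries all lay above the KO-labelled 2-month libraries and above the WT 1-year libraries, while at 2 years WT replicate 3, at 315, reached into the KO-labelled range. Batf, which partners Jun with IRF factors in lymphocytes, stayed within a 1.52-fold range, at 1531 to 2332 normalized counts, although it lies only 209396 bp downstream of Fos, at chromosome 12, 85686669 to 85709087.

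Libraries of a group differed more in most AP-1 genes than in a typical gene. The SD within groups on the log2 scale was 1.18 for Fos, 1.19 for Fosb, 1.75 for Atf3, 0.65 for Jund, 0.63 for Junb, 0.49 for Fosl2, 0.48 for Jun and 0.48 for Maff. Batf had 0.17. The median was 0.33 over all 16958 genes tested and 0.25 over the 12743 genes with a mean of at least 50. Over all 8 groups, limma's F test called Fosl2 (adjusted p = 0.0135) and Maff (adjusted p = 0.0033), so 2 of 9 members, against 18.9% of all genes tested. At an unadjusted p under 0.05 it was 6 of 9, against 33.1% of all genes. Junb had an adjusted p of 0.054, Atf3 0.057, Jun 0.073, Jund 0.13, Fosb 0.20, Batf 0.22 and Fos 0.28. With KO-labelled 1-year replicate 1 placed at 2 months the F test called 0 members, and without WT 2-year replicate 3 it called 6. It called 4 without germ-free 2-month replicate 2, KO-labelled 2-month replicate 3, WT 2-month replicate 3 or WT 2-year replicate 2.

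**Figure D2:**
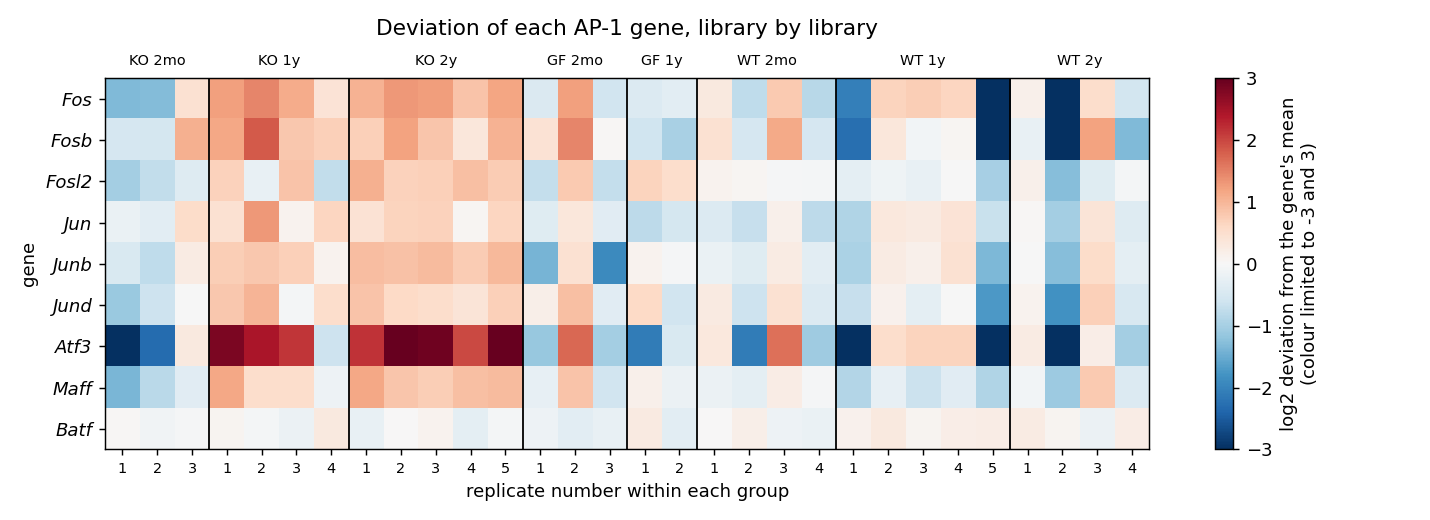
Log2 deviation of each AP-1 gene (rows) from its own mean over 30 libraries, in each library (columns, by group and replicate number). Columns are mostly of 1 colour from Fos to Maff, such as the low WT 1-year replicates 1 and 5 and WT 2-year replicate 2, while the Batf row is pale throughout.

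Within groups the members moved together, apart from Batf. After each gene's group mean was removed, the deviation of Fos followed that of Fosb with Pearson r = 0.965 and Spearman rho = 0.952 over 30 libraries. It followed Atf3 with r = 0.932 and rho = 0.924, Junb with r = 0.895 and rho = 0.930, Jund with r = 0.858 and rho = 0.794, and Jun with r = 0.855 and rho = 0.855. For Maff r was 0.726 and rho 0.714. With 13 such relations computed, the largest Benjamini-Hochberg adjusted permutation p among these 6 members was 0.000557, and 1e-05 was the smallest p that 100000 permutations of libraries within groups could give. Fosl2 had r = 0.653 (adjusted permutation p = 0.0018) and rho = 0.597 (adjusted permutation p = 0.0051). Without WT 2-year replicate 2 and WT 1-year replicate 5, the farthest in Fos, r was 0.493 for Fosl2 and 0.689 to 0.935 for the other 6. Among the 8 members other than Batf, Fosl2 and Jun had the lowest r between their deviations, 0.298. Batf did not follow Fos, with r = -0.102 (adjusted permutation p = 0.77) and rho = -0.067 (adjusted permutation p = 0.76).

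The pattern was present within each genotype label. Between Fos and Junb r was 0.936 over the 12 KO-labelled and 0.971 over the 13 WT libraries, and between Fos and Atf3 it was 0.914 in KO-labelled and 0.970 in WT libraries. Between Fos and Fosb it was 0.922 in KO-labelled and 0.974 in WT libraries. In the same order it was 0.656 and 0.931 for Jun, 0.639 and 0.938 for Jund, and 0.676 and 0.791 for Maff. Between Fos and Fosl2 it was 0.442 in KO-labelled and 0.818 in WT libraries. The differences between the labels were not tested. The values of 1 library share its depth and its normalization factor. The rough estimate of depth had r = 0.077 with Fos (rho = 0.090, adjusted permutation p = 0.82 and 0.76). The mean log2 level of the 13 neutrophil markers had r = 0.078 (rho = 0.068, adjusted permutation p = 0.82 and 0.76), the 15 cytosolic heat shock genes r = 0.231 (rho = 0.353, adjusted permutation p = 0.23 and 0.12) and the mitochondrial share of a library r = 0.013 (rho = -0.237, adjusted permutation p = 0.96 and 0.39). Within the 12 KO-labelled libraries the mitochondrial share had r = 0.790, the heat shock genes r = 0.579, the neutrophil markers r = 0.482 and estimated depth r = -0.204. Within the 13 WT libraries r was, in the same order, -0.240, 0.009, 0.246 and 0.253. KO-labelled 2-month replicate 3, the highest of its group in Fos, had the largest mitochondrial share of all libraries, 6.24%, against 1.94% to 3.69% elsewhere. The part of these measures in the result was not tested.

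**Figure D3:**
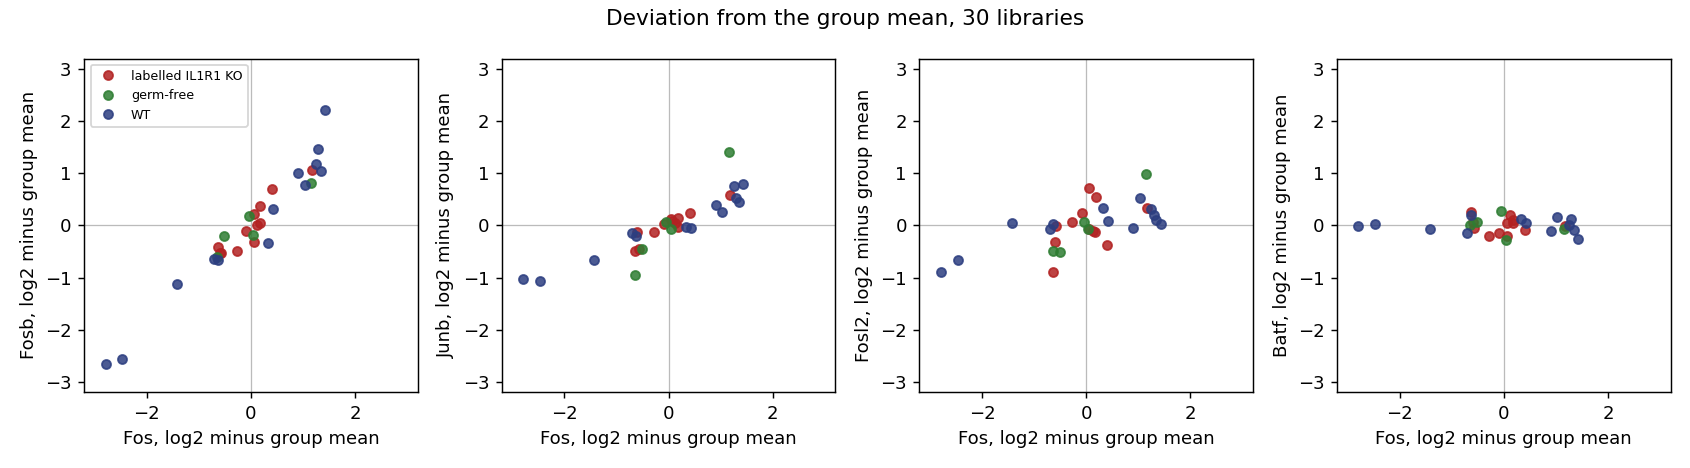
Deviation of Fosb, Junb, Fosl2 and Batf (y axes) against that of Fos (x axes), as log2 value minus the group mean, in 30 libraries coloured by label. Fosb and Junb follow Fos (r = 0.965 and 0.895), Fosl2 does so more loosely (r = 0.653) and Batf does not (r = -0.102).

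The genes most like the members over the 30 libraries, among 12694 genes compared on the same centred scale, were in part other early response genes: of the 27 places, 3 for each of 9 members, 18 went to genes of the immediate early and feedback lists described below. For Fos these were Zfp36, which speeds the decay of short-lived RNAs (r = 0.967), Dusp1, a MAP kinase phosphatase (r = 0.958), and Klf6 (r = 0.942). For Fosb they were Klf4 (r = 0.963), Zfp36 (r = 0.950) and Id1 (r = 0.942), and for Fosl2 the orphan nuclear receptor Nr4a1 (r = 0.882), Hes1 (r = 0.874) and Dusp5 (r = 0.861). Jun was most like Klf6 (r = 0.913), Klf2 (r = 0.911) and Dusp1 (r = 0.898), Junb like Ier2 (r = 0.959), Btg2 (r = 0.951) and Zfp36 (r = 0.938), and Jund like Klf4 (r = 0.889), Zfp36 (r = 0.873) and Egr1 (r = 0.857). Atf3 went with Klf6 (r = 0.942), Trp53inp2 (r = 0.925) and Btg2 (r = 0.909), and Maff with Tsc22d2 (r = 0.864), Bloc1s4 (r = 0.863) and Hes1 (r = 0.856). None of the 3 genes closest to Maff is in these lists. Nor is any of the 3 closest to Batf, which were Gatd1 (r = 0.782), Pycard (r = 0.749) and Ap2s1 (r = 0.744). Some genes took more than 1 place, and of the 18 distinct genes 10 were in the immediate early and feedback lists. The share of these lists among the 12694 genes compared was not computed. The r values given are the highest of many and carry no test.

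At 2 years against 2 months in KO-labelled HSCs, 8 of 9 AP-1 members had a positive difference and 3 of 9 rose by limma's test with Benjamini-Hochberg adjustment over all genes, against 8.02% of all genes in either direction. Maff rose by 1.76 ± 0.34 (log2, SE; adjusted p = 0.0012), Fosl2 by 1.54 ± 0.33 (adjusted p = 0.0040) and Atf3 by 4.51 ± 1.27 (adjusted p = 0.029). The 5 older libraries all lay above the 3 younger ones in these 3 genes, and also in Fos, Junb and Jund, which were not called. The share of all genes separated in this way was not computed, and since these genes vary together across libraries the separations are not independent results. At an unadjusted p under 0.05 it was 6 of 9, against 20.8% of all genes, the others being Fos (1.85 ± 0.86, adjusted p = 0.22), Junb (1.23 ± 0.45, adjusted p = 0.10) and Jund (1.20 ± 0.44, adjusted p = 0.094). Fosb differed by 0.81 ± 0.86, Jun by 0.49 ± 0.34 and Batf by -0.05 ± 0.13. The median difference was 1.23 over the 9 members and 0.00 over all genes. The KO-labelled 2-month group, the baseline here, had the lowest median of the 8 groups in Fosl2, Maff and Atf3. Fosl2 ran from 1014 to 1577 in it and 1989 to 2205 in WT at 2 months. For Maff it was 69.8 to 144 and 149 to 215, and for Atf3 79.1 to 1124 and 215 to 2889. The part of this low baseline in the changes at 1 and 2 years was not tested.

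The calls of Fosl2 and Maff at 2 years kept an adjusted p between 0.0065 and 0.038 and between 0.0013 and 0.021 when any 1 library was left out. The Atf3 difference ran from 3.67 to 5.58 when any 1 library was left out. It lost its call without KO-labelled 2-month replicate 1 (adjusted p = 0.18), 2-month replicate 2 (0.093), or 2-year replicate 2 (0.053), 3 (0.051) or 5 (0.055), and with 1-year replicate 1 placed at 2 months (3.34, adjusted p = 0.16). That placement gave 1.26 for Maff (adjusted p = 0.049) and 1.19 for Fosl2 (adjusted p = 0.044). Without the 6 high-Mpo libraries only 1 KO-labelled 2-month library was left and none of the 3 calls held, although the differences were 1.73 for Maff (adjusted p = 0.051), 1.56 for Fosl2 (0.090) and 4.96 for Atf3 (0.21).

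At 1 year against 2 months in KO-labelled HSCs, Maff rose by 1.36 ± 0.36 (adjusted p = 0.042), so 1 of 9 members, against 2.00% of all genes. All 9 differences were positive, with a median of 1.12 against 0.00 over all genes, and 4 of 9 had an unadjusted p under 0.05, against 14.3% of all genes. Fos differed by 1.78 ± 0.90 (adjusted p = 0.38) and Atf3 by 3.54 ± 1.32 (adjusted p = 0.19). The Maff call was lost without KO-labelled 1-year replicate 1 (adjusted p = 0.13), 2 (0.086) or 3 (0.085), or 2-month replicate 1 (0.26) or 2 (0.088), and with 1-year replicate 1 placed at 2 months, when the difference was 0.65 (adjusted p = 0.65). At 2 years against 1 year, 0 of 9 members passed limma's adjusted test, against 0.177% of all genes, and 1 of 9 the unadjusted one, against 7.37%. That was Fosl2, at 0.68 ± 0.31 (adjusted p = 0.64).

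Set against WT at 2 years, 8 of 9 AP-1 members had a positive difference in KO-labelled HSCs, but 1 of 9 passed limma's test after adjustment, against 1.42% of all genes. Fosl2 was higher by 1.21 ± 0.31 (log2, SE; adjusted p = 0.044), with 3358 to 4328 normalized counts in 5 KO-labelled and 855 to 2297 in 4 WT libraries. At an unadjusted p under 0.05 it was 8 of 9, against 11.5% of all genes, and since these 8 vary together across libraries they are not 8 independent results. Atf3 differed by 3.96 ± 1.16 (adjusted p = 0.10), Fos by 2.01 ± 0.79 (0.28), Fosb by 1.82 ± 0.79 (0.35), Junb by 1.16 ± 0.41 (0.21), Maff by 1.12 ± 0.31 (0.075), Jund by 0.99 ± 0.40 (0.29) and Jun by 0.74 ± 0.31 (0.32). Batf was the exception at -0.19 ± 0.12 (adjusted p = 0.60). The median was 1.16 over the members and -0.01 over all genes. The Fosl2 call lay close to the threshold and was lost when any 1 of the 9 libraries other than WT replicate 1 was left out, with adjusted p up to 0.19 without WT replicate 2, and with KO-labelled 1-year replicate 1 placed at 2 months (adjusted p = 0.088), which alters the pooled spread.

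At 1 year, 0 of 9 members differed between KO-labelled and WT libraries after adjustment, against 1.30% of all genes, while 7 of 9 had an unadjusted p under 0.05, against 12.0%. Maff came closest (1.12 ± 0.31, adjusted p = 0.073), and without KO-labelled replicate 4 the count was 1. Fosb differed by 2.25 ± 0.79 (adjusted p = 0.22) and Atf3 by 2.72 ± 1.16 (adjusted p = 0.34). The 2 low WT libraries, replicates 1 and 5, had Fos at 18674 and 9057 against 119381 to 127495 in the other 3. Their estimated depth was 32.7 and 33.8 M reads against 32.6 to 56.3 M, and their neutrophil markers averaged 7.07 and 5.56 (log2) against 3.04 to 5.10. Between KO-labelled and WT libraries at 1 year, 4 of 13 erythroid markers were called higher and 0 lower, with a median of 1.73 and summed levels of 65242 to 78789 in KO-labelled and 51592 to 67316 in WT libraries. Of the 15 cytosolic heat shock genes 5 were called higher and 0 lower, with a median of 0.72. The part of these measures was not tested. At 2 months the sign was the other way for 8 of 9 members, with a median of -0.51. Of the members, 0 passed the adjusted test, against 0.407% of all genes, and 2 the unadjusted one, against 9.57%. These were Fosl2 (-0.73 ± 0.35, adjusted p = 0.52) and Maff (-0.78 ± 0.36, adjusted p = 0.49).

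**Figure D4:**
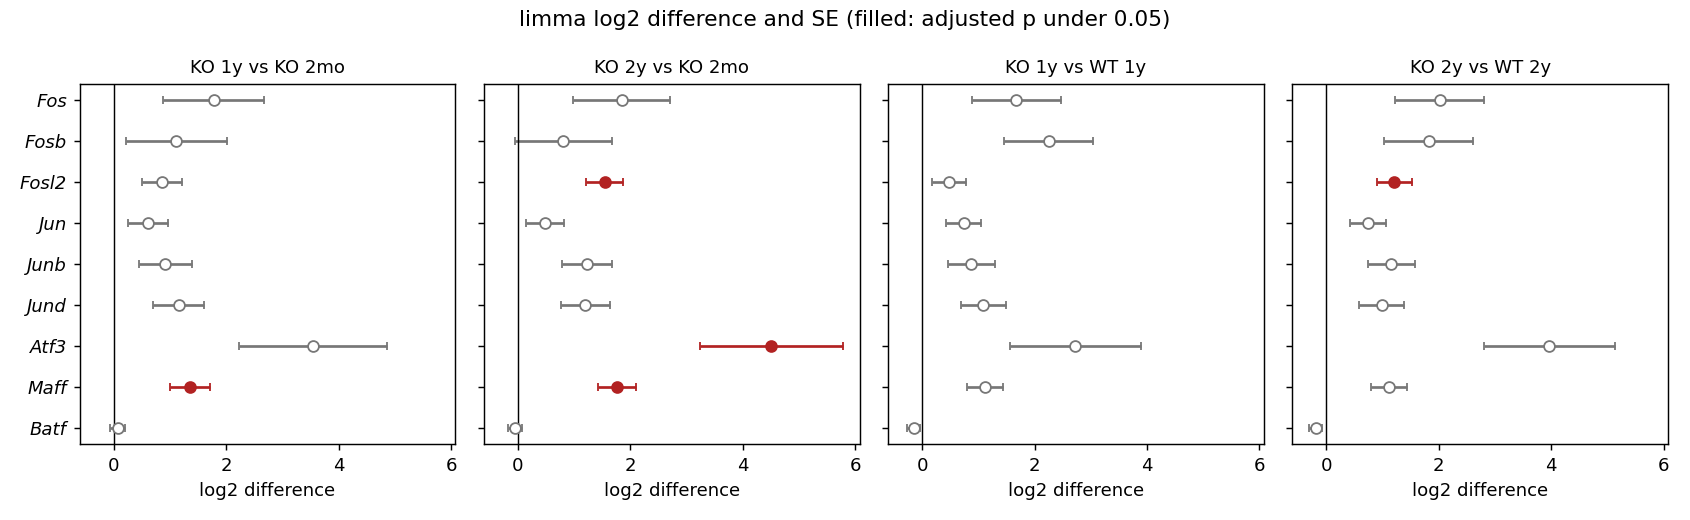
limma log2 difference (x axes, points, with bars of 1 SE) of the 9 AP-1 genes in 4 comparisons of KO-labelled libraries; filled red points have an adjusted p under 0.05. Maff is filled at 1 year (1.36), Maff, Fosl2 and Atf3 at 2 years against 2 months (1.76, 1.54 and 4.51), Fosl2 at 2 years against WT (1.21), and none at 1 year against WT.

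The age changes in KO-labelled and WT HSCs were also compared directly. The 2-year change was larger in KO-labelled HSCs by 1.94 ± 0.47 for Fosl2 (adjusted p = 0.062) and 1.89 ± 0.48 for Maff (adjusted p = 0.073). Neither passed, so 0 of 9 members were called against 0.395% of all genes (1 without WT 2-year replicate 1 or 3), and 6 of 9 at an unadjusted p under 0.05, against 9.73%. For the 1-year change it was 0 of 9 against 0.0354% of all genes, and 4 of 9 unadjusted against 10.1%, with Maff nearest at 1.90 ± 0.48 (adjusted p = 0.13). A difference in ageing between the genotype labels was therefore not shown by the adjusted test.

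In WT HSCs no member changed with age by limma's adjusted test. At 1 year against 2 months it was 0 of 9, against 10.7% of all genes, and 0 of 9 unadjusted against 23.5%. Fosb had the largest difference, -1.27 ± 0.79 (adjusted p = 0.36), and the median was -0.45 over the members and 0.01 over all genes. At 2 years against 2 months it was 0 of 9 against 5.55%, and 0 of 9 unadjusted against 18.0%, with a median of -0.30. At 2 years against 1 year it was 0 of 9 against 0.0118%, and 0 of 9 unadjusted against 4.36%. The wide spread of Fos, Fosb and Atf3 in WT at 1 and 2 years leaves large intervals, as in Fosb at 2 years against 2 months (-1.14 ± 0.84).

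Germ-free housing was not accompanied by a called change in any member. Germ-free 1-year libraries, of which there are 2, gave 0 of 9 against 2 months, beside 2.10% of all genes, and 0 of 9 unadjusted beside 15.2%. Against WT, 0 of 9 were called at 2 months, beside 0.601% of all genes, and 0 of 9 unadjusted beside 9.49%. At 1 year it was 0 of 9 beside 4.96% of all genes, and 1 of 9 unadjusted beside 20.1%. That member was Fosl2, higher by 0.93 ± 0.38 (adjusted p = 0.16), with 3270 and 2988 normalized counts in germ-free and 1029 to 2047 in WT libraries. The difference of the germ-free and WT age changes was called for 0 of 9, beside 0.00% of all genes, and for 1 of 9 unadjusted beside 10.6%. That was again Fosl2, at 1.16 ± 0.52 (adjusted p = 0.42). Germ-free 2-month replicate 2 was the highest of its group in all members but Batf, with Fos at 179439 against 56588 and 51465 and neutrophil markers averaging 5.66 (log2) against 9.98 and 12.70.

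Other genes of the pathway were read from lists that hold no member, in the same comparisons and by the same adjusted test. Counts of every list below are to be read beside the shares over all genes. Of all genes tested, 8.02% were called at 2 years and 2.00% at 1 year against 2 months in KO-labelled HSCs. Between KO-labelled and WT libraries it was 1.42% at 2 years and 1.30% at 1 year. At an unadjusted p under 0.05 the shares were, in the same order, 20.8%, 14.3%, 11.5% and 12.0%. Among 18 other immediate early genes tested, 11 rose and 0 fell at 2 years against 2 months in KO-labelled HSCs, with a median of 1.72. They included Csrnp1 (2.66 ± 0.45), Per1, a clock gene (2.51 ± 0.41), and Myc, the growth regulator (0.94 ± 0.14). In KO-labelled against WT HSCs at 2 years 7 of the 18 were higher and 0 lower, with a median of 1.85. Among these were Csrnp1 (2.05 ± 0.41), Sgk1, a kinase of ion transport (1.71 ± 0.37), and Mcl1, a survival protein (1.32 ± 0.28). At 1 year 1 of 18 rose against 2 months, Myc (0.56 ± 0.15), and 0 differed from WT by limma's adjusted test, with 12 at an unadjusted p under 0.05. At 2 months 0 of 18 differed between KO-labelled and WT HSCs by that adjusted test. The median was -0.46, and 7 had an unadjusted p under 0.05, against 9.57% of all genes. The deviations of this list's mean followed those of Fos with r = 0.886 (rho = 0.883, adjusted permutation p = 2.6e-05 and 6.5e-05).

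Phosphatases and early feedback genes, some of which switch the pathway off, behaved alike. Of 24 tested, 11 rose and 0 fell at 2 years against 2 months in KO-labelled HSCs, among them Trib1 (2.09 ± 0.27), Dusp4, a phosphatase of nuclear MAP kinases (1.28 ± 0.20), and Gadd45g (1.10 ± 0.19). At 1 year 6 rose and 0 fell, including Trib1 (1.53 ± 0.28), Spry2 (1.10 ± 0.25) and Dusp4 (0.89 ± 0.21). When set against WT at 2 years, 5 were higher and 0 lower, including Dusp5 (3.00 ± 0.66), Dusp4 (1.10 ± 0.18) and Zfp36l2 (0.59 ± 0.14), and at 1 year 1 was higher.

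Of 24 other bZIP genes tested, 9 rose and 0 fell at 2 years against 2 months in KO-labelled HSCs, among them Maf (2.49 ± 0.38), Batf2 (0.79 ± 0.15) and Nfe2l2, the Nrf2 factor of the oxidative stress response (0.79 ± 0.11). At 1 year Maf (2.49 ± 0.40) and Nfe2l2 (0.54 ± 0.11) rose, and 0 fell. Against WT at 2 years 4 were higher and 0 lower, including Creb5 (1.71 ± 0.32), Atf4, the amino acid stress factor (1.04 ± 0.27), and Nfe2l2 (0.43 ± 0.10). The list median was 0.49 with age at 2 years and 0.27 against WT at 2 years, below that of the early genes.

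Kinases and factors upstream of AP-1 were called in both directions and, with age in KO-labelled HSCs, close to the share of all genes. Of 28 tested, 2 rose and 1 fell at 2 years against 2 months in KO-labelled HSCs, against 8.02% of all genes. Mef2d (0.83 ± 0.21) and Mef2c (0.44 ± 0.08) rose and Rps6ka1, a kinase that ERK activates, fell (-0.49 ± 0.11). At 1 year 0 changed by limma's adjusted test, against 2.00% of all genes. At an unadjusted p under 0.05 it was 4 of 28, against 14.3%. Map3k8 alone was called against WT at 2 years, and it was lower (-0.64 ± 0.16). Of 15 genes of NF-kB subunits and feedback, 4 rose and 0 fell at 2 years against 2 months, including Tnfaip3 (1.53 ± 0.42), Bcl3 (1.01 ± 0.25) and Rela (0.40 ± 0.12). Against WT at 2 years 0 of the 15 were called by limma's adjusted test, with 3 at an unadjusted p under 0.05.

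Genes known as AP-1 targets were mixed. Of 17 tested, 4 rose and 2 fell at 2 years against 2 months in KO-labelled HSCs. Ptgs2, the inducible cyclooxygenase (3.17 ± 0.53), and Plaur, the urokinase receptor (2.85 ± 0.47), rose, while Vim, an intermediate filament protein, fell (-0.80 ± 0.14). At 1 year Ptgs2 alone was called (2.20 ± 0.56), and against WT at 2 years Plaur alone (1.95 ± 0.43). The list median at 2 years was 0.20 with age and 0.09 against WT. Of the 15 cytosolic heat shock genes, 9 fell and 0 rose at 2 years against 2 months in KO-labelled HSCs, the opposite direction to the early genes. Hspa1a and Hspa1b, near-identical genes that can share reads, differed by -7.21 ± 0.91 and -6.85 ± 1.11, and Hspe1 by -1.44 ± 0.16. The list mean was 11.5 ± 0.31 (log2) in KO-labelled HSCs at 2 years and 13.2 ± 0.44 at 2 months (SD, n = 5 and 3). In WT at 2 months it was 12.1 ± 0.09 (SD, n = 4). At that age 3 of the 15 were called higher in KO-labelled than in WT HSCs and 0 lower, against 0.407% of all genes. At an unadjusted p under 0.05 it was 9 of the 15, against 9.57%. The part of the 2-month group in the age change was not tested. Against WT at 2 years 0 of the 15 were called by limma's adjusted test, with 4 at an unadjusted p under 0.05.

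Markers of other cells moved with some of these comparisons. In KO-labelled HSCs the summed level of the 13 neutrophil markers was 16890 to 27499 normalized counts at 2 years, against 11934 to 59209 at 2 months, with 1 higher (Prtn3, 0.84 ± 0.19) and 0 lower. That of the 13 monocyte and macrophage markers was 13535 to 14675 at 2 years, against 14789 to 48505 at 2 months, with 1 lower (Ms4a6c, -2.26 ± 0.41). In WT libraries at 2 years the summed level was 18281 to 61268 for neutrophil and 15885 to 22207 for monocyte and macrophage markers. For the 13 erythroid markers it was 64680 to 79419 in KO-labelled and 55035 to 66257 in WT libraries at 2 years. Between KO-labelled and WT libraries at 2 years, 0 markers of these 3 lists were called by limma's adjusted test, and 0 neutrophil, 0 monocyte and macrophage and 6 erythroid markers had an unadjusted p under 0.05. The other marker lists at 2 years against 2 months in KO-labelled HSCs were as follows. Of 12 HSC markers 2 rose (Procr, 0.60 ± 0.11, and Slamf1, 0.47 ± 0.12), of 13 erythroid markers 1 fell (Car2, -0.34 ± 0.09) and of 13 B and plasma cell markers 1 rose (Xbp1, 0.54 ± 0.15). Of 10 T and NK cell markers tested 1 rose (Klrb1c, 2.48 ± 0.23) and 2 fell (Nkg7, -1.60 ± 0.32, and Cd4, -4.12 ± 1.24), and of 7 endothelial and stromal markers tested 1 rose (Kdr, 1.10 ± 0.29), with a list median of -0.42. Of 7 mast cell and basophil markers 1 rose (Gata2, 0.84 ± 0.18), but the list median was -3.65 and 5 of 7 had an unadjusted p under 0.05. The mean log2 level of this list was 4.76 ± 0.64 in KO-labelled libraries at 2 years and 8.20 ± 2.82 at 2 months (SD, n = 5 and 3). Against WT at 2 years 0 of these 7 were called by limma's adjusted test, with 5 at an unadjusted p under 0.05 and a list median of -1.81. Over all marker lists, the only called ones against WT at 2 years were Ly6a (-0.48 ± 0.11) and Hlf (-0.46 ± 0.10) of the HSC list, both lower. No marker of any list was at 0 in all libraries. With the neutrophil list as a covariate, the 2-year differences in KO-labelled HSCs were 1.76 for Maff, 1.56 for Fosl2 and 4.48 for Atf3, all called, while Maff at 1 year, at 1.38, was not (adjusted p = 0.057). The part of the other marker lists in the AP-1 results was not tested.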

How the data were processed

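RNA of 30 libraries of sorted mouse HSCs was made into cDNA by Smart-seq2, which does not mark strand, and sequenced as single-end reads of 100 bp, per the labels' protocols. The authors deposited a signal scale of normalized counts, made by dividing gene counts by a factor for each library. The submitters' processing notes name DESeq2 1.26.0, Salmon 1.2.0.0, cutadapt 2.10 and FastQC 0.11.9, with the build GRCm38. The most frequent value above 0 and under 20 normalized counts was taken as 1 read. Of such low values, 10.9% to 18.4% in a library were whole multiples of it within 0.001. Reads were therefore not recovered and no count model was used. Depth was estimated as summed normalized counts over the same value, and so is rough.

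Groups follow the titles. Whether replicates were separate animals is not stated in the labels, and p-values then reflect library-to-library spread alone, which may be technical. Values entered limma 3.58.1 (R 4.3.3) as log2(normalized count + 1), which understates differences of low genes. The 16958 genes that reached 10 in 3 or more libraries were tested. A mean was fitted for each of 8 groups over all 30 libraries, with trend and robust empirical Bayes, two-sided tests, and Benjamini-Hochberg adjustment over all genes with a threshold of 0.05, for 15 comparisons and 1 F test. The procedure was run on simulated data in which genes varied independently. It was therefore not checked for genes that vary together, as most members do here. Correlations used values centred on group means and 100000 permutations of libraries within groups.

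Positions and merged exon lengths came from GENCODE M21 on GRCm38, and promoters for all 9 members from RefSeq on GRCm38.p6. Named genes were the 9 members, up to 3 called genes with the smallest p in each list for each comparison with a called member, and the 3 genes most like each member. Il1r1, Mpo, Kit and Prdx2 were added as checks. The lists covered other bZIP genes, upstream kinases and factors, feedback genes, other immediate early genes, AP-1 targets, heat shock, NF-kB, and markers of HSCs, neutrophils, monocytes, erythroid cells, B, T and NK cells, mast cells and stroma. The members and lists were chosen with earlier results of these data known. Python 3.11.15 was used for descriptions and plots, with matplotlib 3.10.9, pandas 2.3.3 and numpy 2.4.6.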

Additional observations from a re-analysis of the deposited data

How the results depend on the processing

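Pseudocounts of 0.5 and 10 and rescaling to a common upper quartile changed no count of called AP-1 members, and none of the 5 called differences changed direction under any alternative run. The number called at 1 year against 2 months in KO-labelled HSCs was 1, and 0 with no filter, without trend and robust settings, with 1-year replicate 1 placed at 2 months, without the high-Mpo libraries, with the neutrophil covariate and with only the groups compared. At 2 years against 2 months it was 3, with 0 without the high-Mpo libraries, 2 with 1-year replicate 1 placed at 2 months and 6 with only the groups compared. For KO-labelled against WT at 2 years it was 1, with 0 under no filter, without trend and robust settings and with 1-year replicate 1 placed at 2 months, 3 with array quality weights and 2 without the high-Mpo libraries. For the same at 1 year it was 0, and 1 with array quality weights and without the high-Mpo libraries. Germ-free against WT at 1 year gave 1 with only the groups compared, and the difference of the 2-year changes of KO-labelled and WT gave 1 with array quality weights and with only the groups compared. The F test over 8 groups gave 4 with array quality weights and 0 with 1-year replicate 1 placed at 2 months. The cause was not tested.

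With 1 library left out, the counts were 0 to 1 for KO-labelled 1 year against 2 months, 2 to 3 for 2 years against 2 months, 0 to 1 for KO-labelled against WT at 1 year, 0 to 1 at 2 years and 0 to 1 for the difference of the 2-year changes, and 2 to 6 for the F test. Where 1 library of a group was left, it was assumed to vary like the other groups. Whether replicate numbers pair the libraries was described without a test. Of 88 pairs with the same number, 5 had deviations correlated above 0.1. The median r was 0.005 for pairs with the same number and -0.0009 for pairs with different numbers. Of 30 libraries, 11 correlated best with their own number, and the count to be expected without pairing was not computed. With the numbers as a replicate block, the count was 0 at 1 year against 2 months in KO-labelled HSCs (Maff 1.40, adjusted p = 0.062) and 0 for KO-labelled against WT at 2 years (Fosl2 1.30, adjusted p = 0.057). Groups of 2 to 5 libraries limit what the tests can show for Fos, Fosb and Atf3, whose spread within groups is widest.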
